A study of Mus musculus with 12 samples.

Results

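Nes, Eef1a2, Serpinb10, Selp and Gem are 5 of the 40847 genes in a count table of mouse macrophage RNA. They were picked because their counts were close to 0 in cells kept with TGFβ, so the low TGFβ values are the choice itself, not a finding, and no limit on the counts was set. What was left to ask was which of them come back when the cells meet a bacterial lipopeptide. The cells are fetal liver alveolar-like macrophages (FLAMs), cultured from mouse fetal liver as a stand-in for lung alveolar macrophages, and all 12 cultures received GM-CSF at 30 ng/ml. The 4 groups of 3 libraries are cells cultured without TGFβ and not stimulated (untreated), cells cultured with recombinant human TGFβ1 at 20 ng/ml, cells without TGFβ given 18 h of Pam3CSK4 (Pam3), a TLR2 ligand, at 25 ng/ml, and cells cultured with TGFβ and given Pam3 (Pam3+TGFβ). The labels give no mouse strain and do not say whether replicates came from separate isolations of cells, so p-values measure the spread between these libraries, which may be technical.

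TGFβ signals through a pair of receptor kinases to SMAD transcription factors, and in the lung it is needed for alveolar macrophages to form and persist. Pam3 binds TLR2, which signals through MyD88 to NF-κB and MAP kinases. The 5 genes belong to unrelated families. Nes encodes nestin, a large intermediate filament protein known from neural progenitors. Eef1a2 encodes the elongation factor that delivers aminoacyl-tRNA to the ribosome in neurons and muscle, where it takes the place of the widely used Eef1a1. Serpinb10 encodes an intracellular serine protease inhibitor of clade B found in blood cells. Selp encodes P-selectin, an adhesion receptor for leukocytes that platelets and endothelium store in granules. Gem encodes a small GTPase of the RGK group, which inhibits voltage-gated calcium channels and acts on the cytoskeleton.

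Total counts per library ran from 34036650 to 44374115. Levels are CPM, counts per 1000000 of the library size after TMM, the trimmed-mean scaling of edgeR. Over the 12 libraries, 3 counts, the level that a count of 0 allows, equal 0.0678 to 0.0953 CPM, and this floor covers counting error alone. All 10 macrophage markers listed were detected, with a summed level of 17361 CPM in the lowest library (with TGFβ) and 38243 CPM in the highest (with Pam3). Lyz2 made up most of this sum, at a mean of 29824 CPM in untreated cells and 15248 with TGFβ, and the markers did not move alike. With TGFβ, mean CPM went from 2147 to 123 for Marco, but from 32.1 to 300 for Siglecf and from 117 to 225 for Pparg. All 5 genes passed the filter on low counts, through the groups in which they were high.

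Without Pam3 the 5 genes did not start from the same height. Nes had 597, 653 and 549 counts in the untreated libraries, Eef1a2 had 420, 448 and 348, and Serpinb10 had 250, 308 and 289. Selp had 47, 48 and 29 counts, and Gem had 6, 7 and 14. With TGFβ, the first 4 genes had 0 counts in each of the 3 libraries, and Gem had 0, 1 and 0. Against the floor of 3 counts per library, Nes was at least 200-fold lower than in untreated cells, Eef1a2 at least 135-fold, Serpinb10 at least 94.3-fold and Selp at least 13.7-fold. Gem was 27-fold lower by its summed counts, 27 against 1, with a 95% counting interval from 4.46 to 1107. Nes, Eef1a2 and Serpinb10 thus went from 250 counts or more to none, while Gem was low already, at 0.158, 0.168 and 0.399 CPM in the 3 untreated libraries. These values describe the choice and carry no test. In bulk RNA, fewer cells of a kind and less RNA per cell cannot be told apart.

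Per kilobase of the canonical transcript, untreated cells held 2.56 ± 0.0049 CPM of Nes, 2.14 ± 0.24 of Serpinb10, 0.312 ± 0.063 of Selp and 0.103 ± 0.0579 of Gem (SD, n = 3). Nes and Serpinb10 stood close together in this order, Selp and Gem well below both. Eef1a2 is left out of the order, because its canonical transcript is annotated at 13742 bases and its place would rest on that length.

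**Figure D1:**
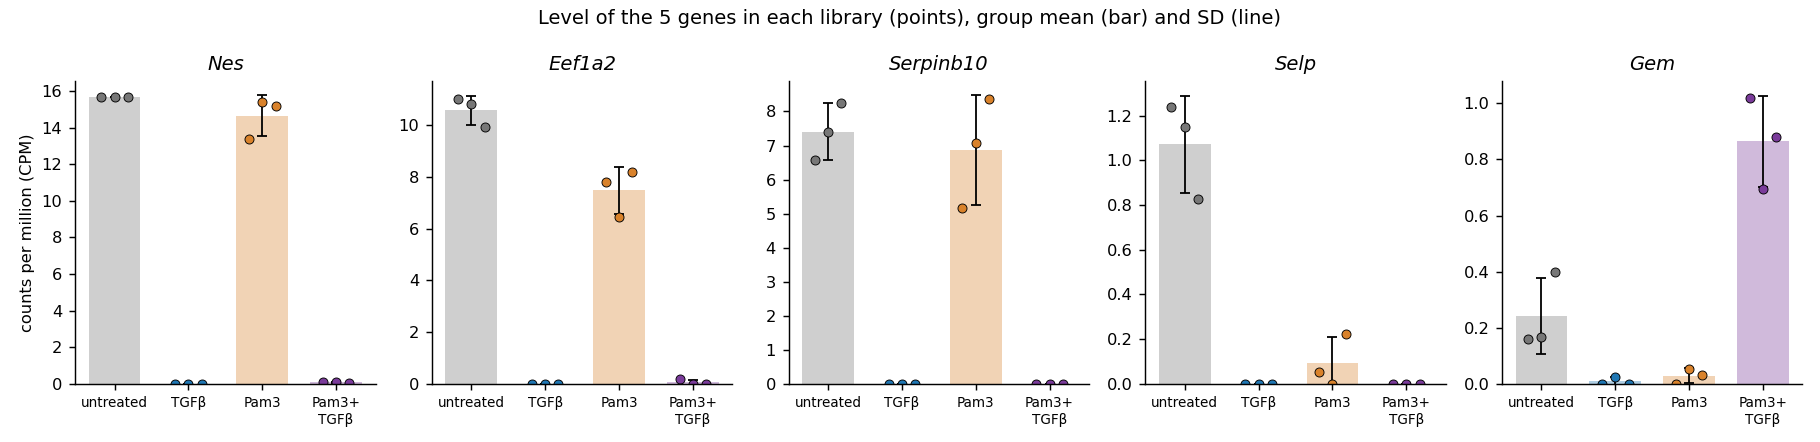
CPM (linear axes that start at 0, 1 scale per gene) of Nes, Eef1a2, Serpinb10, Selp and Gem in the 4 groups, with points for the 3 libraries of a group, bars for the mean and lines for the SD. Nes, Eef1a2 and Serpinb10 are high in untreated and Pam3 libraries and at or near 0 in both groups with TGFβ, Selp is high in untreated libraries alone, and Gem is highest with Pam3+TGFβ.

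With both agents, 4 of the 5 genes stayed at or near 0 and 1 came back. Serpinb10 and Selp had 0 counts in each Pam3+TGFβ library. Nes had 3, 4 and 2 counts, and Eef1a2 had 6, 0 and 0. Gem had 35, 26 and 39 counts, more than in any other group. Pam3+TGFβ and Pam3 share no library with the groups the genes were picked from, but the fit takes its spread from all 12 libraries. With Pam3+TGFβ against Pam3, Nes, Eef1a2 and Serpinb10 were called lower and Gem was called higher (edgeR quasi-likelihood test, Benjamini-Hochberg adjusted p under 0.05 over 14749 genes). Selp was called lower too, but it passed the filter through the untreated libraries only, and its Pam3+TGFβ and Pam3 libraries overlapped at 0 counts. The call of Selp was lost in several alternatives, given with its values. Over all tested genes this comparison called 23.8% lower and 21.5% higher. The loss that picked the genes was seen against untreated cells, so differences from untreated cells are described, with no p, and nothing is read from their calls. With both agents Nes, Eef1a2, Serpinb10 and Selp stood lower than in untreated cells and Gem higher. With Pam3 the log2 fold changes of Selp and Gem against untreated cells were -3.59 and -2.96. For Gem the fits against untreated cells depended on single libraries, as given with the processing.

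Nes stood close to its untreated level with Pam3 alone and near the floor with Pam3+TGFβ. The Pam3 libraries held 516, 579 and 478 counts, or 14.7 ± 1.08 CPM (SD, n = 3), against 15.7 ± 0.03 CPM in untreated cells. The 3 Pam3 libraries lay just below the 3 untreated ones, with a log2 fold change of -0.10 (SE 0.109). With Pam3+TGFβ the level was 0.0798 ± 0.0316 CPM (SD, n = 3), about the floor. By summed counts, 9 against 1573, this was 0.531% of the level with Pam3 (95% counting interval 0.242% to 1.01%). The fitted log2 fold change was -7.50 (SE 0.217, edgeR adjusted p 1.77e-18). Each of the 3 Pam3+TGFβ libraries held 2 or more counts and each TGFβ library none.

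Eef1a2 stood at 70.2% of its untreated level with Pam3, by summed counts, and was almost absent with both agents. The Pam3 libraries held 300, 243 and 258 counts, or 7.48 ± 0.916 CPM, against 10.6 ± 0.587 CPM in untreated cells (SD, n = 3). These groups did not overlap, and the log2 fold change was -0.50 (SE 0.202). With Pam3+TGFβ, 6 counts in replicate 1 and 0 in the others gave 0.695% of the Pam3 level (95% counting interval 0.254% to 1.52%). The fitted log2 fold change against Pam3 was -7.08 (SE 0.397, edgeR adjusted p 1.5e-11), and -11.15 without replicate 1 of Pam3+TGFβ. Against untreated cells it was -7.58 (SE 0.386), and -11.65 without the same library. For its paralog Eef1a1 the mean CPM was 2177 (untreated), 2113 (TGFβ), 2150 (Pam3) and 2123 (both agents). With both agents against Pam3 its log2 fold change was -0.02 (SE 0.0564, edgeR adjusted p 0.821).

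Serpinb10 had no count in any of the 6 libraries with TGFβ, whether or not Pam3 was given. The Pam3 libraries held 198, 266 and 263 counts, or 6.86 ± 1.61 CPM, against 7.41 ± 0.833 CPM in untreated cells (SD, n = 3). These 2 groups overlapped, and the log2 fold change was -0.12 (SE 0.189). It was 0.058 without Pam3 replicate 1, the lowest of the 6 libraries. With Pam3+TGFβ, Serpinb10 was at least 87.4-fold lower than with Pam3 (edgeR adjusted p 1.41e-13) and at least 94.4-fold lower than in untreated cells.

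Selp was low with Pam3 alone, and at 0 in each library with TGFβ. It passed the filter through the untreated libraries only. With Pam3 alone the libraries held 2, 0 and 7 counts against 47, 48 and 29 in untreated cells, and the groups did not overlap. By summed counts Selp was 12.9-fold lower with Pam3 (95% counting interval 6.59 to 28.9), a log2 fold change of -3.59 (SE 0.804) that was -5.19 without Pam3 replicate 3. With Pam3+TGFβ all 3 libraries were at 0, at least 13.7-fold below untreated cells. Pam3+TGFβ and Pam3 overlapped at 0 counts, and the bound on the fold between them was 1.17. The call of Selp in this comparison (edgeR adjusted p 0.0263) was lost without Pam3 replicate 3 (0.189) and without replicate 1, 2 or 3 of Pam3+TGFβ (0.0565, 0.0581 and 0.0668), and also with DESeq2 (0.0626) and with limma-trend (0.209).

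Gem was the single member that returned, and it returned above its untreated level. With Pam3 alone it had 0, 2 and 1 counts, 8.45-fold lower than in untreated cells by summed counts (95% counting interval 2.6 to 43.5). The log2 fold change was -2.96 (SE 0.9). With Pam3+TGFβ, Gem stood at 0.865 ± 0.162 CPM (SD, n = 3), and each of these libraries held more than any of the other 9. It was 30.9-fold above Pam3 by summed counts (95% counting interval 10.3 to 152), a log2 fold change of 4.80 (SE 0.833, edgeR adjusted p 3.24e-05). That value was 4.23 without Pam3 replicate 1 and 5.62 without Pam3 replicate 2, still called. Gem passed the filter through the Pam3+TGFβ libraries only, the group in which it was high. In a fit without the filter the value was 4.803 (edgeR adjusted p 2.47e-06). Against untreated cells Gem was 3.66-fold higher by summed counts, a log2 fold change of 1.84 (SE 0.626) that lay between 1.615 and 2.388 without 1 library. Against TGFβ alone, whose low counts chose the gene, the summed counts were 100 against 1, given here without a test.

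**Figure D2:**
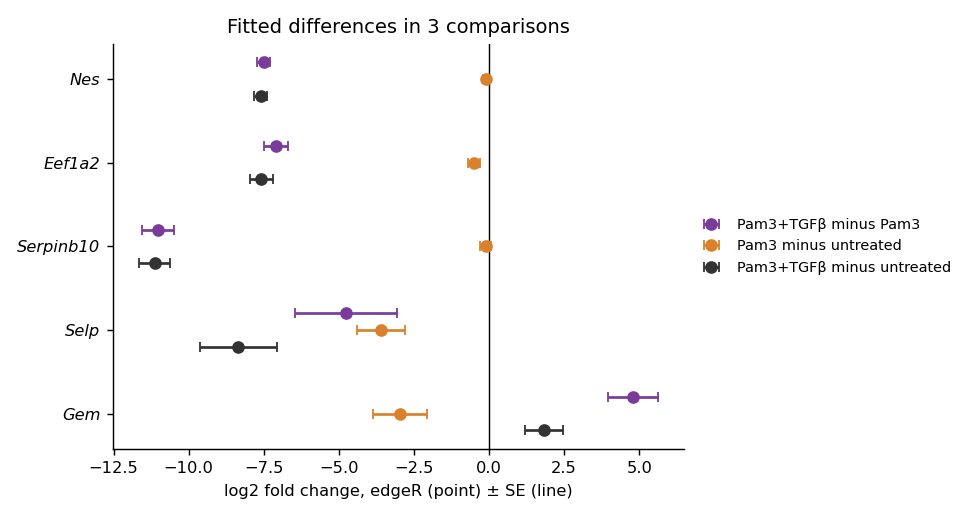
Fitted log2 fold changes (points) with their SE (lines) of the 5 genes for Pam3+TGFβ minus Pam3, Pam3 minus untreated, and Pam3+TGFβ minus untreated. Nes, Eef1a2 and Serpinb10 lie near 0 in the second comparison and far below 0 in the others, and Gem lies above 0 in both comparisons with Pam3+TGFβ. The points of Serpinb10 and Selp with Pam3+TGFβ rest on groups at 0 counts, so their size depends on the fitting procedure.

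Genes with the same order of groups as Gem were counted as a description, since the choice fixed the low TGFβ level of Gem. Among 14749 tested genes, 1001 (6.79%) had every TGFβ library and every Pam3 library below every untreated library. Of all tested genes 5 had every TGFβ library and every Pam3 library below every untreated library, and every Pam3+TGFβ library above them (0.0339%). This order was chosen after the values of Gem were seen, and so were the names that follow. The other 4 were Areg, Ezr, Mkx and Spg7. Areg encodes amphiregulin, a growth factor that binds the EGF receptor, and its CPM was 6.23 ± 1.61 with both agents, against 1.27 ± 0.117 (untreated), 0.792 ± 0.263 (TGFβ) and 0.475 ± 0.221 (Pam3; SD, n = 3 each). For Mkx, a homeobox transcription factor, CPM was 11.6 ± 0.445 with both agents, against 8.55 ± 0.853 (untreated), 6.6 ± 0.158 (TGFβ) and 6.04 ± 0.306 (Pam3; SD, n = 3 each). The groups of Ezr and Spg7 differed less, with Ezr between 102 and 121 CPM and Spg7 between 38.1 and 44 CPM in group means.

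The 5 genes were set beside every gene of the table with a comparable loss, defined as 3 counts or fewer in each TGFβ library and 30 or more in each untreated library. This class held 38 genes, Nes, Eef1a2 and Serpinb10 among them. Selp lay just outside it, with 29 counts in untreated replicate 3, and Gem lay far outside. With Pam3 alone the median gene of the class stood at 103% of its untreated level, and with Pam3+TGFβ at 3.74%. In 12 of the 38 (31.6%) each Pam3+TGFβ library held 4 counts or more, and in 4 (10.5%) all 3 libraries were at 0. None of the 38 stood higher with Pam3+TGFβ than with Pam3 or than untreated, by group means. No test was run on the class, which the low TGFβ counts define, and it held 12 genes when 0 counts were required in each TGFβ library and 14 when 100 were required in each untreated library, with 2 and 6 of them back. Nes, Eef1a2 and Serpinb10 belonged to the class under each of these limits.

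Within the class, Nes, Eef1a2 and Serpinb10 were among the lowest with Pam3+TGFβ relative to Pam3 and relative to untreated cells. Serpinb10 was one of the 4 genes with 0 counts in every Pam3+TGFβ library, with Rtn4rl2 and Slco2a1 among the others. Nes was the 7th and Eef1a2 the 9th from the bottom by the ratio of Pam3+TGFβ to Pam3, and the 6th and 7th by the ratio to untreated cells. These ratios do not measure a rise from TGFβ alone. Serpinb2 was 6th by the ratio to Pam3, below Nes, although its summed counts were 2 with TGFβ and 33 with both agents. At the other end, Dnaic1 reached 44.5% of its Pam3 level, Ankrd66 33.7% and Wfdc18 11.5%. The counts of Dnaic1 with Pam3+TGFβ were few, 31 over 3 libraries, and those of Ankrd66 were 89.

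**Figure D3:**
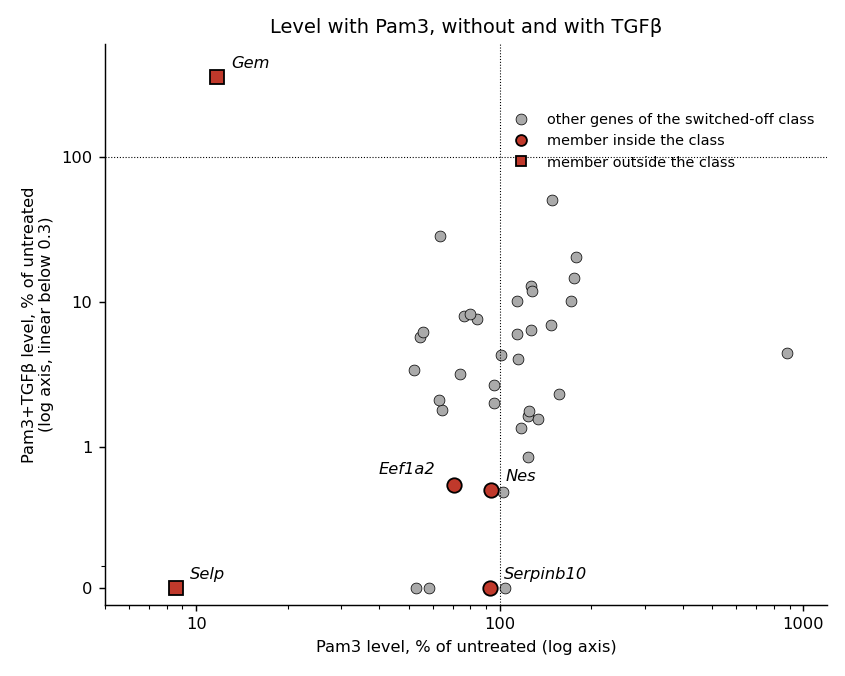
Level with Pam3 (horizontal, log axis) against level with Pam3+TGFβ (vertical, log axis that is linear below 0.3), each as a percentage of the untreated mean, for the 38 genes of the switched-off class and for Selp and Gem. Nes and Serpinb10 sit near 100% on the horizontal axis and Eef1a2 somewhat lower, all 3 under 1% on the vertical one, Selp sits low on both, and Gem lies above the untreated level with both agents.

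Close relatives of each gene were read from lists of related genes. Most measured clade B serpins were lower with TGFβ, as Serpinb10 was. Of 27 listed besides Serpinb10, 10 passed the filter, and with Pam3+TGFβ against Pam3 8 of these 10 were called lower and none higher, where 23.8% of all genes were called lower and 21.5% higher. The median log2 fold change was -1.26, against -0.002 over all genes. With TGFβ against untreated cells 9 were called lower and 1 higher (median -2.71, against -0.008), where 28.1% of all genes were called lower and 22.9% higher. These counts depend on the filter, which genes near 0 with TGFβ pass through their higher groups. With at least 10 counts required in every library, 3 were called with Pam3+TGFβ against Pam3. With TGFβ against untreated cells the lowest count of calls over the alternatives was 5. With Pam3 against untreated cells 3 were called higher and 1 lower, where 9.62% of all genes were called higher and 8.66% lower. Serpinb2, which encodes plasminogen activator inhibitor type 2, rose with Pam3 from 6.12 ± 1.65 to 53.9 ± 11.2 CPM (SD, n = 3), or 3.13 on the log2 scale (SE 0.233, edgeR adjusted p 3.92e-06). With Pam3+TGFβ it held 9, 4 and 20 counts, 0.274 ± 0.173 CPM (SD, n = 3), and was lower than with Pam3 by a log2 fold change of -7.55 (SE 0.353, edgeR adjusted p 1.33e-08). Serpinb9b went from 5.39 ± 1.47 CPM with Pam3 to 0.0372 ± 0.0323 with both (SD, n = 3, edgeR adjusted p 4.41e-11). Serpinb2, Serpinb8, Serpinb9b and Serpinb10 were 4 of the 38 genes of the switched-off class.

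Selectins and the enzymes that build their ligands did not move as a block with Selp. Of 15 listed besides Selp, 13 passed the filter, of which 9 were called higher and 1 lower with Pam3+TGFβ against Pam3 (median 0.29), where 21.5% of all genes were called higher and 23.8% lower. With TGFβ against untreated cells 9 were called higher and 3 lower (median 0.34), where 22.9% of all genes were called higher and 28.1% lower. Sele, the endothelial selectin, had 1 count in 12 libraries. St3gal6, a sialyltransferase, rose from 1.27 ± 0.252 CPM with Pam3 to 3.86 ± 0.354 with both (SD, n = 3, edgeR adjusted p 1.76e-06), and Tpst1, a tyrosine sulfotransferase, from 22.6 ± 2.25 to 59.4 ± 1.61 CPM (SD, n = 3, adjusted p 3.1e-13).

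Among RGK GTPases and partners of Gem, Rrad, another RGK GTPase, was also highest with both agents. Rrad had 27, 35 and 9 counts in untreated cells, 9, 3 and 4 with TGFβ, 46, 32 and 25 with Pam3 and 104, 107 and 127 with both. With Pam3 its level was 0.947 ± 0.218 CPM and with both 2.92 ± 0.0917 CPM (SD, n = 3), higher by 1.62 on the log2 scale (SE 0.377, edgeR adjusted p 0.000951). With Pam3 against untreated cells (0.603 ± 0.307 CPM, SD, n = 3) its log2 fold change of 0.64 (SE 0.402) did not pass the test (edgeR adjusted p 0.318). Rem1, another RGK GTPase, fell with Pam3 from 2.16 ± 0.196 to 0.858 ± 0.117 CPM (SD, n = 3, edgeR adjusted p 0.00136), and Rem2 had 1 count in all. Of the 13 tested genes in this list, 2 were called higher and 4 lower with Pam3+TGFβ against Pam3 (median -0.14), where 21.5% of all genes were called higher and 23.8% lower.

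Relatives of Nes and Eef1a2 had medians near 0. Of the 5 tested intermediate filament genes besides Nes, of 14 listed, 2 were called higher and 1 lower with Pam3+TGFβ against Pam3 (median 0.05, with 21.5% higher and 23.8% lower over all genes). The lower one was Bfsp1, a lens filament gene, at 5.11 ± 0.195 CPM with Pam3 and 1.37 ± 0.51 with both (SD, n = 3, edgeR adjusted p 1.34e-07). Vim, which encodes vimentin, the main filament protein of macrophages, stood at 1694 CPM with Pam3 and 1710 with both, a log2 fold change of 0.01 (SE 0.0531, edgeR adjusted p 0.856). Of the 11 tested elongation factor genes besides Eef1a2, of 12 listed, 2 were called higher and 3 lower in this comparison (median -0.07). Among these was Eef1akmt2, a methyltransferase, at 3.18 ± 0.335 CPM with Pam3 and 1.25 ± 0.202 with both (SD, n = 3, edgeR adjusted p 0.000219).

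The genomic neighbours of the members were read on GRCm39, the build named in the labels, with GENCODE M39 annotation. All 5 genes are protein-coding. Nes lies at chr3:87878385-87887758 on the plus strand, Eef1a2 at chr2:180778581-180799838 on the minus strand, and Gem at chr4:11704343-11714993 on the plus strand. Serpinb10 lies at chr1:107456757-107477001 and Selp at chr1:163942833-163977595, both on the plus strand. The nearest protein-coding gene above Serpinb10, 40699 bases away, is Serpinb8, and Serpinb2 overlaps it on the same strand with 275 shared exon bases. Reads in that stretch cannot be assigned to either gene with certainty. The pair differed in the response to Pam3, with Serpinb2 8.64-fold higher with Pam3 by summed counts and Serpinb10 at 91.5% of untreated. Both were low with TGFβ, with summed counts of 2 and 0 with TGFβ alone and 33 and 0 with Pam3+TGFβ. Serpinb7, 76338 bases below Serpinb10, had 0 counts throughout. F5, which encodes coagulation factor V, lies 1694 bases above Selp. Exons of Selp share 919 bases with the antisense Gm16548, which had 0 counts throughout.

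Serpinb8 and F5 were also near 0 with TGFβ. Serpinb8 had 249, 271 and 194 counts in untreated cells, 3, 2 and 0 with TGFβ, 394, 337 and 424 with Pam3 and 46, 27 and 30 with both. It was lower with Pam3+TGFβ than with Pam3 by a log2 fold change of -3.59 (SE 0.234, edgeR adjusted p 3.91e-12), and higher than with TGFβ alone by 4.26 (SE 0.514, adjusted p 2.87e-07). By summed counts, 103 against 5, Serpinb8 was 20.4-fold higher than with TGFβ alone (95% counting interval 8.46 to 64.1). F5 had 243, 192 and 196 counts in untreated cells, 0, 4 and 3 with TGFβ, 186, 197 and 148 with Pam3 and 1, 0 and 3 with both. F5 with Pam3+TGFβ was at 0.699% of the Pam3 level by summed counts (95% counting interval 0.19% to 1.8%, edgeR adjusted p 4.3e-13). F5 with Pam3 against untreated cells did not pass the test (log2 fold change -0.17, SE 0.23, edgeR adjusted p 0.7). Beside Nes, Bcan and Crabp2 had 0 counts in untreated cells. Beside Eef1a2, Ppdpf was higher with Pam3+TGFβ than with Pam3 (log2 fold change 0.48, edgeR adjusted p 0.000179). Beside Gem, Cdh17 had 0 counts in untreated cells and Rad54b was higher with Pam3+TGFβ than with Pam3 (log2 fold change 0.59, edgeR adjusted p 0.00128).

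**Figure D4:**
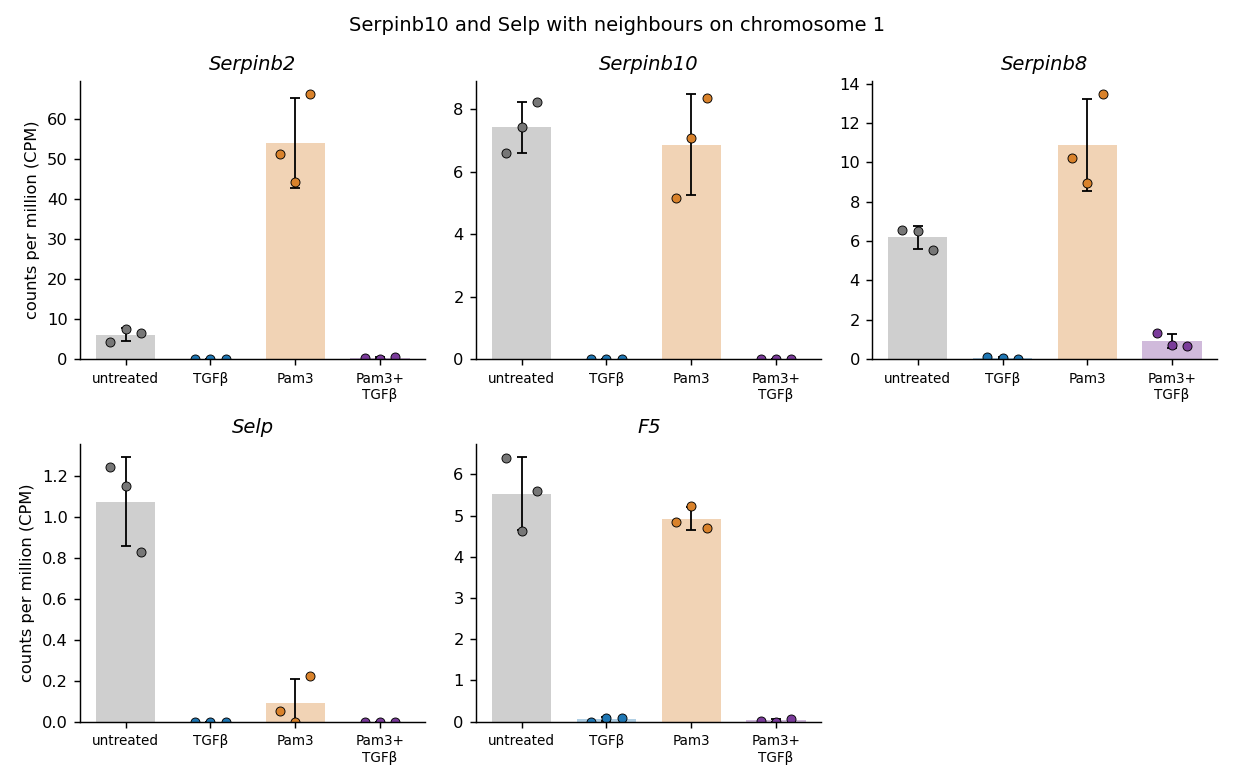
CPM (linear axes that start at 0, 1 scale per gene) of Serpinb2, Serpinb10 and Serpinb8 (top) and of Selp and F5 (bottom) in the 4 groups, with points for libraries, bars for the mean of 3 and lines for the SD. All 5 genes are at or near 0 with TGFβ, and with Pam3+TGFβ Serpinb8 reaches 0.913 CPM and Serpinb2 0.274 CPM.

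Promoter sequence from RefSeq (build GRCm38.p6) was matched for 4 of the 5 genes, Nes, Eef1a2, Serpinb10 and Selp. It is shown because these 4 were at or near 0 with TGFβ, with and without Pam3. Each line gives the 250 bases before the annotated start, 5′ to 3′ on the strand of the gene. Capitals mark matches on either strand to the short SMAD box CAGAC, the AP-1 motif TGANTCA and the NF-κB motif (GGG, 5 bases of any kind, CC). In Nes the 2 NF-κB matches overlap.
Nes, chr3:87970843-87971092 (+ strand): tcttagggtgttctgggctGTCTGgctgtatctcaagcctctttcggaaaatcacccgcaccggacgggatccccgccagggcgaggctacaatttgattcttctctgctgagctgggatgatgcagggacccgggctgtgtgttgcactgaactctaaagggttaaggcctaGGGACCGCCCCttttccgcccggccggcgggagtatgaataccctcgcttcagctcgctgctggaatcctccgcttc
Eef1a2, chr2:181157016-181157265 (- strand): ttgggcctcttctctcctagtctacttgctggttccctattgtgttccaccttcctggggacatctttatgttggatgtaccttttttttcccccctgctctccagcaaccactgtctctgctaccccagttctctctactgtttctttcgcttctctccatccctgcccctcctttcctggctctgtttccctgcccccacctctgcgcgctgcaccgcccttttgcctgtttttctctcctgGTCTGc
Serpinb10, chr1:107528753-107529002 (+ strand): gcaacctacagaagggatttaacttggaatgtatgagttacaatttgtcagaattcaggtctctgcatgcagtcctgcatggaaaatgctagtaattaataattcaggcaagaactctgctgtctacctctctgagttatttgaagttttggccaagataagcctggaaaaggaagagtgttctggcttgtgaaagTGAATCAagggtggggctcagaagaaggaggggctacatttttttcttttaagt
Selp, chr1:164115014-164115263 (+ strand): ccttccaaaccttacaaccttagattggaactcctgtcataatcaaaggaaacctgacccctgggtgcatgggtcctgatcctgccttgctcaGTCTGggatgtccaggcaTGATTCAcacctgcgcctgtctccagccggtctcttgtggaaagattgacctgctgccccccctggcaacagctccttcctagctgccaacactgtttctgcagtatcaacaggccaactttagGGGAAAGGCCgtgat

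The short SMAD box was in the windows of Nes, Eef1a2 and Selp, and in 42.2% of all 32851 windows of the same length. The AP-1 motif was in Serpinb10, 54 bases before the start, and in Selp, 139 bases before it, against 6.75% of all windows. The NF-κB motif was in Nes and Selp, against 45.8%. The E-box CANNTG was in Selp, against 66.2%. The cyclic AMP response element TGACGTCA (1.55% of all windows), the palindromic SMAD box GTCTAGAC (0.167%), the interferon response motif (GAAA, 2 bases of any kind, GAAA; 2.98%) and the PU.1 motif GAGGAA (23.3%) were in none of the 4. The base composition also differed, with 40.8% G and C in Serpinb10, 53.6% in Selp, 54% in Eef1a2 and 58.8% in Nes, against a median of 52.4%. A match to these letters is a description and not evidence of binding.

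For each member the genes with the most similar course over the 12 libraries were sought by Pearson r of log2 CPM. These values describe libraries that fall into 4 groups, so r largely follows the group means, and a gene with a smaller change can match as well as one with a large change. Nes was closest to Sgms1 (r 0.998), Cdk18 (0.997) and Nrros (0.997), and Eef1a2 to Ahnak2 (0.995), Plekhb2 (0.993) and Syne3 (0.993). Serpinb10 was closest to S100a6 (0.998) and Rtn4rl2 (0.997). For the calcium-binding protein gene S100a6 the mean CPM was 85.9 (untreated), 1.46 (TGFβ), 79.9 (Pam3) and 1.68 (both agents). Selp was closest to Cog1 (0.951), Adipor1 (0.947) and Galnt11 (0.943), and Gem to Mkx (0.953), Uap1 (0.911) and Nod1 (0.893). Among the members themselves, r was 0.986 to 0.991 between Nes, Eef1a2 and Serpinb10, 0.738 to 0.764 between Selp and these 3, and -0.196 to 0.077 between Gem and the other 4.

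Other cells that use some of these genes were checked by their markers. Among 9 endothelial markers Emcn and Erg were at 0 in every library and Cldn5 and Sele had 1 count each, while Vwf, which encodes von Willebrand factor, made up nearly all of their summed level, which was 287 to 303 CPM in untreated libraries, 181 to 197 with TGFβ, 218 to 223 with Pam3 and 121 to 137 with both. Summed over the 3 libraries, Cdh5 had 101 counts (untreated), 6 (TGFβ), 79 (Pam3) and 14 (both), and Kdr had 100, 9, 97 and 61. Pecam1 had 104, 283, 107 and 317 counts, the opposite course. The summed level of the 9 markers of megakaryocytes and platelets was 9.44 to 11.5 CPM in untreated libraries, 4.17 to 6.18 with TGFβ, 15 to 16.1 with Pam3 and 3 to 4.07 with both, and 1 of the 9 was at 0 throughout. Within it Ppbp had 688 counts (untreated), 6 (TGFβ), 974 (Pam3) and 14 (both), and Pf4 had 178, 28, 441 and 69, while Gp1ba had 200, 402, 158 and 226. The part of these markers and of the endothelial ones in the differences of Selp was not tested. Of 6 neural markers Sox2 and Dcx were at 0 in every library. The summed level was 1.43 to 2.47 CPM in untreated libraries, 1.21 to 1.72 with TGFβ, 1.62 to 2.24 with Pam3 and 0.949 to 1.39 with both. It was lower with both than with Pam3 without overlap, as Nes was, but its untreated and TGFβ ranges overlapped, unlike those of Nes. Most of it was Syp, with 204 counts (untreated), 155 (TGFβ), 180 (Pam3) and 121 (both). Tubb3 had 13, 4, 21 and 7 counts, Gfap 19, 6, 16 and 6, and Map2 1, 3, 0 and 1. Of 8 mast cell and basophil markers Mcpt4, Fcer1a and Tpsb2 were at 0 throughout, and the sum was 0.5 to 1.56 CPM in untreated libraries, 0.609 to 1.15 with TGFβ, 0.929 to 1.68 with Pam3 and 2.22 to 2.57 with both, where Gem was highest too. Within it Hdc had 25 counts (untreated), 3 (TGFβ), 84 (Pam3) and 197 (both), Cpa3 had 71, 4, 42 and 6, and Gata2 had 12, 84, 11 and 72. Of 7 fibroblast markers Col1a2 and Lum were at 0, and the sum was 0.529 to 1.48 CPM in untreated libraries, 1.19 to 1.61 with TGFβ, 0.89 to 1.27 with Pam3 and 1.29 to 1.31 with both. The summed level of 7 neutrophil markers was 13.5 to 15.7 CPM in untreated libraries, 3.75 to 5.51 with TGFβ, 16.3 to 17.1 with Pam3 and 5.31 to 6.99 with both, most of it S100a8, with Mpo at 0. S100a8 was lower in both groups with TGFβ, as Nes, Eef1a2 and Serpinb10 were, while S100a9 had 29 counts (untreated), 115 (TGFβ), 53 (Pam3) and 130 (both) and Ngp 39, 70, 36 and 66. The part of these markers in the differences of the members was not tested.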

How the data were processed

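Polyadenylated RNA of 12 FLAM cultures was sequenced. Per the labels' protocols and the submitters' processing notes, the authors used default settings of Bowtie2 2.4.1 to map reads from a stranded kit (GRCm39), and featureCounts (Subread 2.0.0) to make the deposited raw counts per gene symbol. The annotation, strand setting and handling of multiply aligned reads are not given in the sources used here. Bowtie2 does not split reads over introns, so junction reads can be lost. The authors also deposited a normalized signal, the raw count divided by 1 constant per library, used here for 1 alternative.

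From the counts, 14749 of 40847 genes passed filterByExpr of edgeR 4.0.16 (R 4.3.3, minimum count 10). TMM scaling and the robust quasi-likelihood test were fitted to all 12 libraries with 4 group means, with Benjamini-Hochberg adjustment over all genes. SE is the log2 fold change divided by the square root of F. Members have p-values for Pam3+TGFβ against Pam3. The other contrasts use TGFβ or untreated libraries, on which the choice was made, and give members no p. Tests against untreated cells had been planned. For members in these, only the side of the threshold is given, in the section on processing. Where a group has 0 counts in each library, folds are bounds against the mean of 3 counts per library. Where a library has fewer than 4 counts, summed counts give a ratio with an exact (Clopper-Pearson) 95% interval, for counting error only.

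Named besides the members are related genes called with a log2 fold change of at least 1 and 10 counts in each library of the higher group (up to 2 per direction), the 3 most similar genes per member, the 3 extremes of the switched-off class and the nearest coding neighbours. Not all genes these rules pick are described, and some items are not reported here. Members and lists were chosen with earlier results of these data known. Eef1a1, Vim, Sele and Rem2 were named as list members after their values were seen, as was Slco2a1, which shares the lowest place in the class. No 2 replicates agreed within sampling noise, with chi-square over its degrees of freedom at 9.99 to 220. On counts simulated for Pam3+TGFβ against Pam3 (14454 genes), 95% of 100 genes lowered 8-fold and 74% of 100 lowered 2-fold were called, with 16 false calls among 185. Alternatives included DESeq2 1.42.0 and limma 3.58.1.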

Additional observations from a re-analysis of the deposited data

Results flagged for a closer look

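Gem and Nes are listed for the order of their libraries alone. In Gem each Pam3 library lay below each untreated one, and each Pam3+TGFβ library, with a mean of 0.865 CPM, above each TGFβ one. In Nes the order was the same, but the Pam3 libraries lay just below the untreated ones (log2 fold change -0.10, SE 0.109) and the mean of 0.0798 CPM with both agents was about the floor of 3 counts. For both genes the difference between the responses was not tested, and it uses the TGFβ libraries that chose them. In the edgeR test of the interaction, the Pam3 response was higher with TGFβ than without it by 3.71 on the log2 scale for Rrad (SE 0.621, adjusted p 8.83e-05), by 3.46 for Serpinb8 (SE 0.588, adjusted p 0.00013) and by 0.34 for Vim (SE 0.0751, adjusted p 0.00192). Serpinb8 held 3, 2 and 0 counts with TGFβ alone. Its value rests on these few counts, in libraries that also define the switched-off class it belongs to.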

How the results depend on the processing

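The 5 members have 15 fitted values in 3 comparisons, those against untreated cells being descriptions. Over the alternatives, 275 of 296 values kept their direction and side of the threshold in the fit. Of the others, 16 fell short of the threshold, 4 crossed it and 1 changed sign. This tally includes the fits against untreated cells, so no support for the members is read from it. With Pam3+TGFβ against Pam3, Nes, Eef1a2, Serpinb10 and Gem kept their calls in every alternative that gave a value. Selp with Pam3+TGFβ against Pam3 was not called with DESeq2 (log2 fold change -4.226, adjusted p 0.0626) or limma-trend on the deposited values (-1.465, 0.209), and lay between -5.362 and -3.173 without 1 library. Eef1a2 with Pam3 crossed the threshold with DESeq2 (-0.504), without a filter (-0.505) in the 6 libraries alone (-0.497) and without Pam3+TGFβ replicate 1 (-0.498), and lay between -0.571 and -0.405 without 1 library. On leaving out a library, Serpinb10 with Pam3 gave -0.279 to 0.058, Gem with Pam3 -3.77 to -2.383, and Gem with both agents against untreated cells 1.615 to 2.388. Against untreated cells, the fit with Pam3 put Gem past the threshold no longer without untreated replicate 3, Pam3 replicate 1 or Pam3 replicate 3. The fit with both agents no longer did without untreated replicate 1 or 2 or Pam3+TGFβ replicate 1 or 3. At adjusted p under 0.01, Selp with Pam3+TGFβ against Pam3 (-4.76) lost its call. The described fits of Gem against untreated cells (-2.957 and 1.838) fell short of that limit. The Pam3 response had 1682 called genes in place of 2697 and the interaction 1487 in place of 2352. The switched-off class held 12 or 14 genes under stricter limits, and 42 to 53 when a library was left out, an alternative chosen after seeing the data. With at least 10 counts in every library no member was left to test. DESeq2 gave no adjusted p for Selp and Gem with Pam3, and in fits of 6 libraries Selp (Pam3+TGFβ against Pam3) and Gem (Pam3 against untreated) did not pass the filter. Of 595 list counts under alternatives, 26 moved by over 1.5 times.

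Replicate numbers are shared between groups, but nothing in the labels says that they pair libraries, and of 18 same-numbered pairs 7 had a correlation of deviations above 0.1 (-0.174 to 0.3). Of the 12 libraries, 5 correlated best with their own number. A fit with a replicate block changed no call of a member and gave 6736 called genes with Pam3+TGFβ against Pam3 in place of 6679. Its adjusted p for Selp was 0.0423. The cause of each change named here was not tested. For Gem, Selp and the near-absent groups 1 read is a large part of each value.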
